A study of Homo sapiens with 2 samples.

Results

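The clade A serpins that the liver secretes into plasma were examined in PLC8024 hepatocellular carcinoma cells with and without the gene MAEL. The 7 members, taken by gene name from the 58735 genes of the count table, were SERPINA1, SERPINA3, SERPINA4, SERPINA6, SERPINA7, SERPINA10 and SERPINA11. Total RNA was sequenced as 1 library of non-treated cells with the wildtype genotype (MAEL WT) and 1 library of cells with the MAEL KO genotype. The labels place the cells in liver as Alexander cells of epithelial morphology, and the line is also known as PLC/PRF/5. MAEL was knocked out with an sgRNA and Cas9, the knockout cells were sorted to grow clones from single cells, and the knockout was checked by western blot and T7E1 assay. With 1 library per genotype no difference below has a replicate check, and no test was run. How many clones the MAEL KO library holds is not given in the sources used here, and a difference of a clone cannot be told apart from one of the genotype.

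Serpins are a superfamily of proteins that share a fold with an exposed reactive centre loop. Inhibitory serpins offer this loop as bait to a protease, which cuts it and is then trapped in a covalent complex as the serpin refolds. Some clade A members have lost this activity and carry hormones instead, and hepatocytes release most of them into blood, where several change in the acute phase response. SERPINA1 encodes alpha-1 antitrypsin, the main plasma inhibitor of neutrophil elastase, SERPINA3 encodes alpha-1 antichymotrypsin, which inhibits cathepsin G and chymase, and SERPINA4 encodes kallistatin, an inhibitor of tissue kallikrein. SERPINA10 encodes the protein Z-dependent protease inhibitor, which inactivates coagulation factor Xa. SERPINA6 encodes corticosteroid-binding globulin, the plasma carrier of cortisol, and SERPINA7 encodes thyroxine-binding globulin, the plasma carrier of thyroid hormone. The role of SERPINA11 is poorly known.

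MAEL, a gene of germ cells that takes part in silencing transposons, had 1 count in MAEL WT and 0 in MAEL KO, so the labels could not be checked by its transcript. The MAEL WT library held 19904136 counts and the MAEL KO library 20833332. A floor of 3 counts corresponded to 0.151 and 0.144 CPM (counts scaled to the library total). Reads carried no molecular identifiers and can be copies of the same molecule, so that intervals and floors account for the error of counting alone. Fold changes set MAEL KO over MAEL WT on the log2 scale, from counts scaled by TMM factors with 1 added. They were taken for 17887 genes that reached 10 counts in 1 of the libraries, called tested below. Their median log2 fold change was -0.04, with 8593 values above 0 and 9294 below. With the total counts as the only scaling it was -0.31, and every gene moved down by a like amount, so values are best read against the median. Each interval was made from the MAEL KO share of the reads of a gene by the exact Clopper-Pearson method at 95%, and carried to the log2 scale.

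STAT3 and the C/EBP factors drive liver genes in the acute phase, and the member promoters were searched for the letters these factors favour. The windows, from RefSeq on GRCh38.p14, hold 250 bases before and 50 bases after a start, and all 7 members matched, with 9 windows. The STAT letters TTCNNNGAA, searched on both strands, stood in 2 of the 9 member windows, against 7.66% of the 35116 windows in the table. The C/EBP letters TTGCNNAA, also on both strands, stood in 3 (10.5% of all), of which both windows of SERPINA10 hold the same site. The stretches of 30 bases around these matches are shown because genes of both factors are measured below, and the capitals mark the match. Each is written 5′ to 3′ on the strand of its gene, with the distance of the first capital from the start.
SERPINA6, STAT, chr14:94323512-94323541, minus strand, at -195: aaaaaaagacTTCATAGAAttgaacgcaga
SERPINA11, STAT, chr14:94452828-94452857, minus strand, at -47: ttcataccagTTCCCAGAAttgacctgaca
SERPINA10, C/EBP, chr14:94293255-94293284, minus strand, at -5 of the first window: atagcaaatatTTGCTGAAggttctgggct
SERPINA7, C/EBP, chrX:106038758-106038787, minus strand, at -49, on the opposite strand: gagtgctctagTTTTGCAAtacaggacatg

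In GENCODE 29 the match of SERPINA10 overlapped an exon of the gene, and the others lay outside their genes. The windows of SERPINA1, SERPINA3 and SERPINA4 held neither set of letters. Other motifs were searched in the same windows and are not described, so these matches do not stand for all that the members share. A match describes the letters and not a bound factor. Of the 4 members with a STAT or C/EBP match, SERPINA6 and SERPINA10 were higher in MAEL KO, SERPINA11 did not differ detectably, and SERPINA7 gave no read in either library. Of the members without a match, SERPINA1 was also higher, SERPINA4 was lower and SERPINA3 had too few counts. A link between match and direction was not tested.

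SERPINA1 and SERPINA6 stood out by level, and both were higher in the MAEL KO library. SERPINA1 had 78162 counts in MAEL WT and 232891 in MAEL KO, or 729 and 2506 FPKM. It took 0.393% of all counts (0.39 to 0.395%) in MAEL WT and 1.12% (1.11 to 1.12%) in MAEL KO, and went from rank 9 to rank 2 among all genes by counts. The log2 fold change was 1.79 (1.77 to 1.80), 3.45-fold higher. Only 543 of the tested genes had a higher value. By FPKM, which takes gene length into account, SERPINA1 stood at rank 30 in MAEL WT and rank 12 in MAEL KO.

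SERPINA6, the cortisol carrier, had 693 counts in MAEL WT and 2837 in MAEL KO, or 17.1 and 80.8 FPKM. Its log2 fold change of 2.24 (2.12 to 2.37), 4.73-fold higher, was the highest of the members, and 281 tested genes lay above it. With total counts as the only scaling the value was 1.97 and no longer past 2. By FPKM the gene moved from rank 2720 to rank 531 of the table. Of the members, SERPINA6 alone went past 2, in the higher direction, and 0 went past it in the lower. Across all tested genes 2.16% were past 2 in the higher and 5.64% in the lower direction.

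SERPINA10, the factor Xa inhibitor, had 226 counts in MAEL WT and 495 in MAEL KO, or 1.89 and 4.77 FPKM. The log2 fold change was 1.34 (1.11 to 1.58), 2.53-fold higher. SERPINA4, kallistatin, was the member with the lower value in MAEL KO, with 42 counts in MAEL WT and 14 in MAEL KO, or 0.821 and 0.316 FPKM. Its log2 fold change was -1.32 (-2.36 to -0.47), 2.49-fold lower. A stretch of 53 exon bases of SERPINA4, 2.27% of its exon length, is shared with SERPINA5 on the same strand. Past a log2 fold change of 1 stood 3 members in the higher direction (SERPINA6, SERPINA1 and SERPINA10) and 1 in the lower (SERPINA4), against 10.2% and 16.5% of all tested genes.

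The remaining members were at or near the limit of detection. SERPINA11 had 9 counts in MAEL WT and 14 in MAEL KO, and it was tested only through the MAEL KO library. Its log2 fold change of 0.78 had an interval from -0.46 to 2.24, which holds 0, so no difference was detectable at this depth. SERPINA7 had 0 counts in both libraries, and for this gene the floor of 3 counts corresponds to 0.0499 FPKM in MAEL WT and 0.0577 FPKM in MAEL KO. SERPINA3 had 1 count in each library, and both are under the floor of 3 counts.

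The low count of SERPINA3 carries a limit of annotation. The readthrough gene AL049839.2, on chr14:94592058-94624646 on the plus strand with 0 counts in both libraries, shares 1592 exon bases with SERPINA3, or 31.8% of the exon bases of SERPINA3. Of its 6 coding transcripts 3 lie wholly in shared bases. How reads that overlap more than 1 gene were counted is not given in the sources used here, so the count does not show that SERPINA3 was absent. SERPINA1, SERPINA6, SERPINA7 and SERPINA11 share 0 exon bases with another gene.

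**Figure D1:**
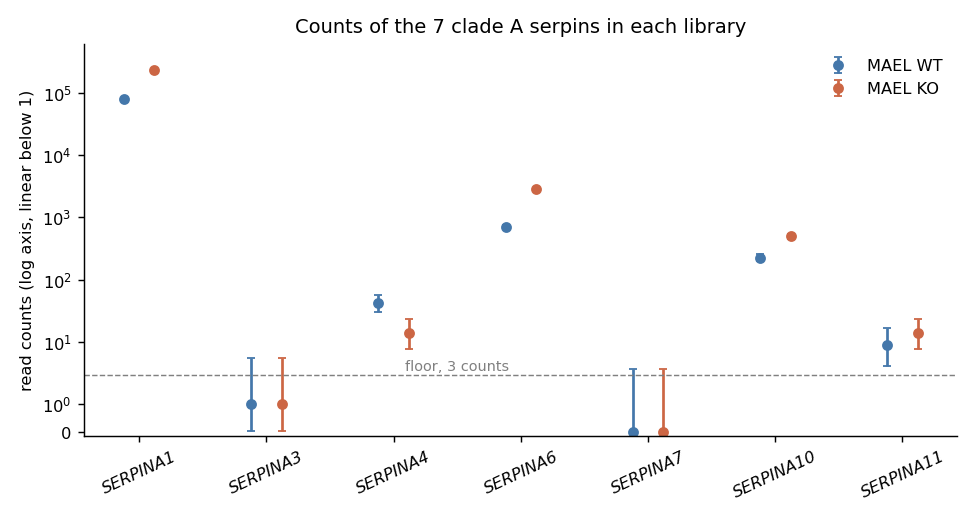
Read counts (vertical axis, logarithmic above 1 and linear below) of the 7 members in the MAEL WT and MAEL KO libraries, with exact 95% Poisson intervals and the floor of 3 counts as a dashed line. SERPINA1 goes from 78162 to 232891 and SERPINA6 from 693 to 2837, SERPINA4 goes from 42 to 14, and SERPINA3 and SERPINA7 lie under the floor.

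Of the 7 members, 5 were tested, and their median log2 fold change was 1.34 beside -0.04 for all tested genes. With total counts as the only scaling these medians were 1.06 and -0.31. Because SERPINA1 supplied 98.8% and 98.6% of the members' counts, their sum, 79133 counts in MAEL WT and 236252 in MAEL KO, followed that gene. Their order by FPKM was the same in both libraries for the 3 highest, SERPINA1, SERPINA6 and SERPINA10. SERPINA4 stood above SERPINA11 in MAEL WT, at 0.821 against 0.279 FPKM. In MAEL KO they stood at 0.316 and 0.5 FPKM, both on 14 counts, so their order there rests on the lengths alone. Dividing the normalized counts by the length of the main transcript gave 20629 and 71112 per kilobase for SERPINA1, and 421 and 1995 for SERPINA6.

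**Figure D2:**
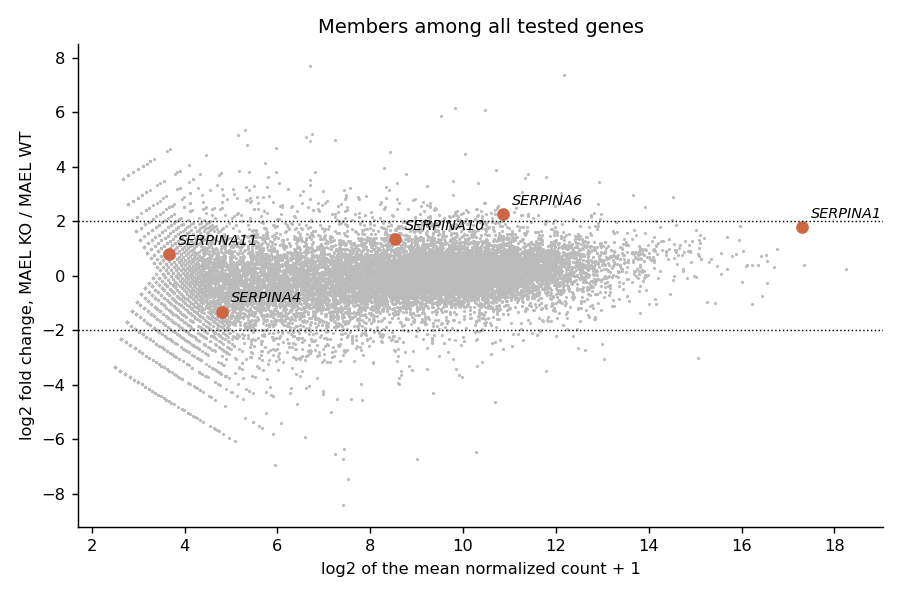
Log2 fold change, MAEL KO over MAEL WT (vertical axis), of the 17887 tested genes against the log2 of their mean normalized count (horizontal axis), with the 5 tested members marked and dotted lines at 2 and -2. SERPINA6, at 2.24, is the member past the upper line, and SERPINA1, at 1.79, lies near the right edge of the plot.

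The ratio of counts of a pair of genes within a library is free of the scaling between libraries. SERPINA1 had 112.8 counts (104.7 to 121.7) per count of SERPINA6 in MAEL WT and 82.1 (79.1 to 85.2) in MAEL KO, so SERPINA6 gained on SERPINA1. SERPINA1 had 345.8 counts (303.5 to 395.8) per count of SERPINA10 in MAEL WT and 470.5 (430.8 to 514.9) in MAEL KO. SERPINA10 had 5.38 counts (3.86 to 7.67) per count of SERPINA4 in MAEL WT and 35.4 (20.9 to 65.2) in MAEL KO. The intervals hold the error of counting alone, and such ratios were not taken for pairs of genes at large. These 3 ratios are therefore given as values only.

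SERPINA7 lies on chromosome X from 106032442 to 106038738 on the minus strand (GRCh38), and the other members share a cluster on chromosome 14. The cluster holds 11 serpin genes over 366.5 kb, 94280455 to 94646994, of which 7 are on the minus and 4 on the plus strand. The 4 minus-strand members are SERPINA10 (94280455 to 94293271), SERPINA6 (94304248 to 94323394), SERPINA1 (94376747 to 94390693) and SERPINA11 (94442464 to 94452790), and the first 3 of these were higher by more than 1 on the log2 scale. SERPINA4 (94561091 to 94569913) and SERPINA3 (94612377 to 94624055) lie on the plus strand. SERPINA5, the protein C inhibitor, which overlaps SERPINA4, had 88 and 86 counts. Its log2 fold change of 0.18 (-0.27 to 0.62) holds 0 in its interval, and turned to -0.10 with total counts as the scaling. SERPINA5 had 2.1 counts (1.44 to 3.1) per count of SERPINA4 in MAEL WT and 6.14 (3.47 to 11.7) in MAEL KO. The other serpin genes of the cluster, SERPINA2, SERPINA9, SERPINA12 and SERPINA13P, had at most 3 counts in either library.

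The genes on both sides of the cluster had no shared direction. PPP4R4, a phosphatase subunit gene next to SERPINA10, had 306 and 226 counts and a log2 fold change of -0.23 (-0.48 to 0.03), and GSC beyond the far end had 0 counts. Of 15 genes listed around the cluster 12 were tested. Their median was 0.03, or -0.25 with total counts, and IFI27L2, with 507 and 101 counts, was past 2 in the lower direction at -2.11. Across chromosome 14 the 576 tested genes had a median of -0.05.

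**Figure D3:**
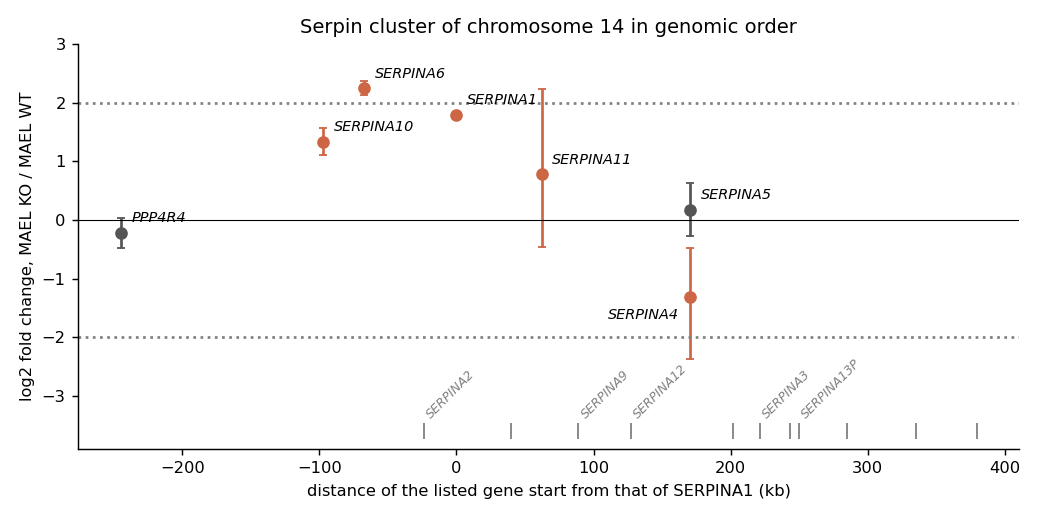
Log2 fold change, MAEL KO over MAEL WT, with its 95% counting interval (vertical axis), for genes of the chromosome 14 serpin cluster. The horizontal axis gives the distance in kb of each gene start from that of SERPINA1. The start is the highest listed coordinate on the minus strand and the lowest on the plus strand. Members are coloured, other genes are dark, genes under the floor in both libraries are ticks at the bottom, and SERPINA10, SERPINA6 and SERPINA1 lie at 1.34, 2.24 and 1.79 while SERPINA4 lies at -1.32.

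Other serpins were read for comparison. AGT, the clade A serpin that gives rise to angiotensin, had 10384 and 23799 counts and a log2 fold change of 1.41 (1.37 to 1.44). All 6 plasma serpins of other clades had values above 0 under both scalings, with a median of 1.54, or 1.26 with total counts. Of all 17887 tested genes 8593 lay above 0 with TMM. SERPINC1, antithrombin, was the 1 past 2, with 8 and 69 counts and a value of 3.16 (2.26 to 4.59). It was tested only through MAEL KO. SERPIND1, heparin cofactor II, had 60 and 177 counts (1.75), and SERPING1, the C1 inhibitor, had 245 and 683 (1.69). Of 18 serpins of cells and tissues 7 were tested, with a median of -0.02, 3 values above 0 and 4 below. SERPINE2, protease nexin, had 46 counts in MAEL WT and 1 in MAEL KO, and was tested only through MAEL WT. Set at the floor of 3 counts, MAEL KO was 13.3-fold lower. The counting interval allows a smaller difference, with its upper limit at -2.76 on the log2 scale. No test of a difference between these lists and the members was run.

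**Figure D4:**
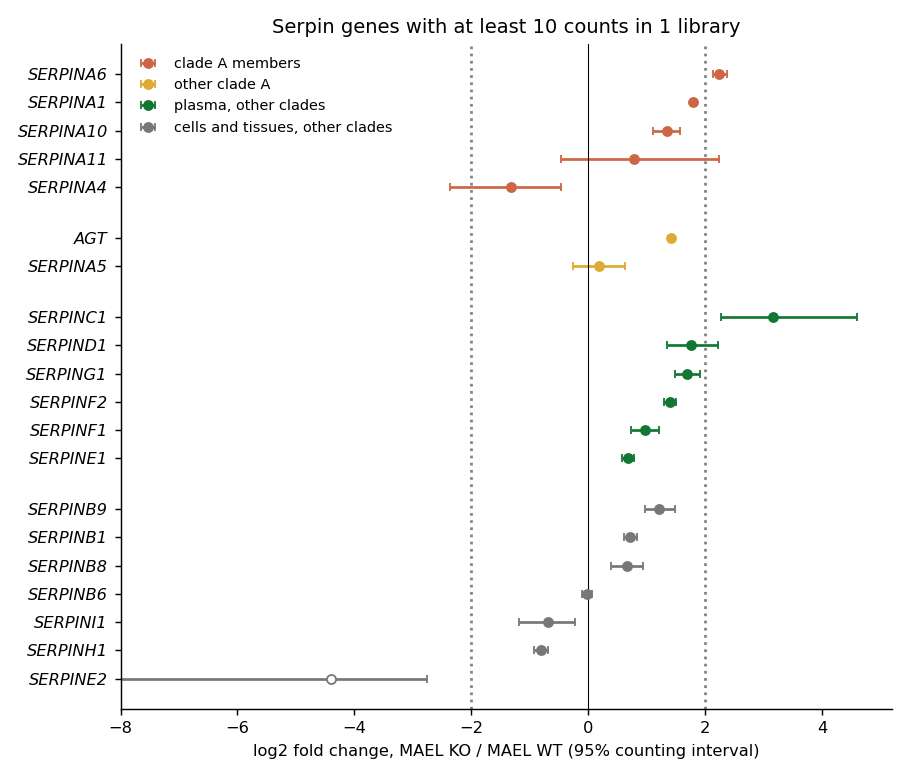
Log2 fold change, MAEL KO over MAEL WT, with its 95% counting interval (horizontal axis), for each tested serpin gene, in 4 colours by list, with dotted lines at 2 and -2. The 6 plasma serpins of other clades lie between 0.68 and 3.16, the members between -1.32 and 2.24, and SERPINE2, drawn open because MAEL KO had 1 count, lies lowest with its interval running past the axis.

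Most proteases that the members inhibit were not detected. Of 16 targets and cofactors 4 were tested. F10, which encodes the factor X that SERPINA10 inhibits once activated, had 435 and 1282 counts and a log2 fold change of 1.77 (1.61 to 1.93). PROZ, the cofactor protein Z, had 61 and 110 counts and 1.05 (0.60 to 1.54), or 0.78 with total counts as the scaling. PRTN3, proteinase 3, a target of alpha-1 antitrypsin, had 57 and 9 counts and -2.34 (-3.65 to -1.43), tested only through MAEL WT. ST14, the membrane protease matriptase, had 4 and 27 counts and 2.67 (1.44 to 4.94), tested only through MAEL KO. Neutrophil elastase (ELANE), cathepsin G (CTSG), chymase (CMA1) and plasma kallikrein (KLKB1) had at most 1 count.

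Among 12 partners of the hormone carriers 10 were tested, with a median of -0.01. TTR, transthyretin, which carries thyroxine beside SERPINA7, had 20 and 155 counts (3.10, 2.49 to 3.92), and ALB, albumin, had 59 and 8550 (7.36, 7.02 to 7.78). SERPINA1 had 1325 counts per count of ALB in MAEL WT and 27.2 in MAEL KO. NR3C1, the glucocorticoid receptor, had 2871 and 2228 counts, a log2 fold change of -0.16 (-0.24 to -0.07), in the same libraries in which its ligand's carrier SERPINA6 was 4.73-fold higher. DIO2, which activates thyroxine, had 291 and 78 counts (-1.68), and DIO1, which also deiodinates thyroxine, had 9 and 33 (1.96). DIO1 was tested only through MAEL KO.

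Of 15 transcription factors of hepatocytes all were tested, and their median was 0.51, with 12 values above 0, against 8593 of all 17887 tested genes. With total counts as the scaling the median was 0.24 and 8 lay above 0. HNF4A, a central regulator of hepatocyte genes, had 2816 and 5391 counts (1.15, 1.08 to 1.21). NR1H4, the bile acid receptor, had 9 and 270 counts (4.96, 4.17 to 6.26), and was tested only through MAEL KO. CEBPB, an acute phase regulator, had 9375 and 1723 counts and a log2 fold change of -2.23 (-2.31 to -2.16), against 1.10 for CEBPD and 0.07 for CEBPA (-0.20 with total counts). In the IL6 and STAT3 arm of the acute phase 10 of 12 genes were tested, with a median of -0.24. Of these 10, 9 lay below 0, against 9294 of all 17887 tested genes. The number past 2 was 0, where 2.16% of all tested genes were past it in the higher and 5.64% in the lower direction. JAK1 had 5826 and 3504 counts (-0.52), STAT3 had 2967 and 2113 (-0.28), and IL6 had 0 in both libraries.

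None of the 21 genes of the secretion and quality control of alpha-1 antitrypsin was past 2, against 2.16% (higher) and 5.64% (lower) of all tested genes. The median was -0.22, with 15 values below 0, against 9294 of all 17887 tested genes. HSPA5, the chaperone BiP of the endoplasmic reticulum, had 63389 and 27544 counts and a log2 fold change of -0.99 (-1.01 to -0.97), opposite in sign to SERPINA1. VCP, which extracts misfolded proteins for degradation, had 13338 and 21711 (0.91). LMAN1, a cargo receptor of alpha-1 antitrypsin, had 9167 and 6914 (-0.20), and the chaperone CANX had 50176 and 45461 (0.07, or -0.21 with total counts).

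**Figure D5:**
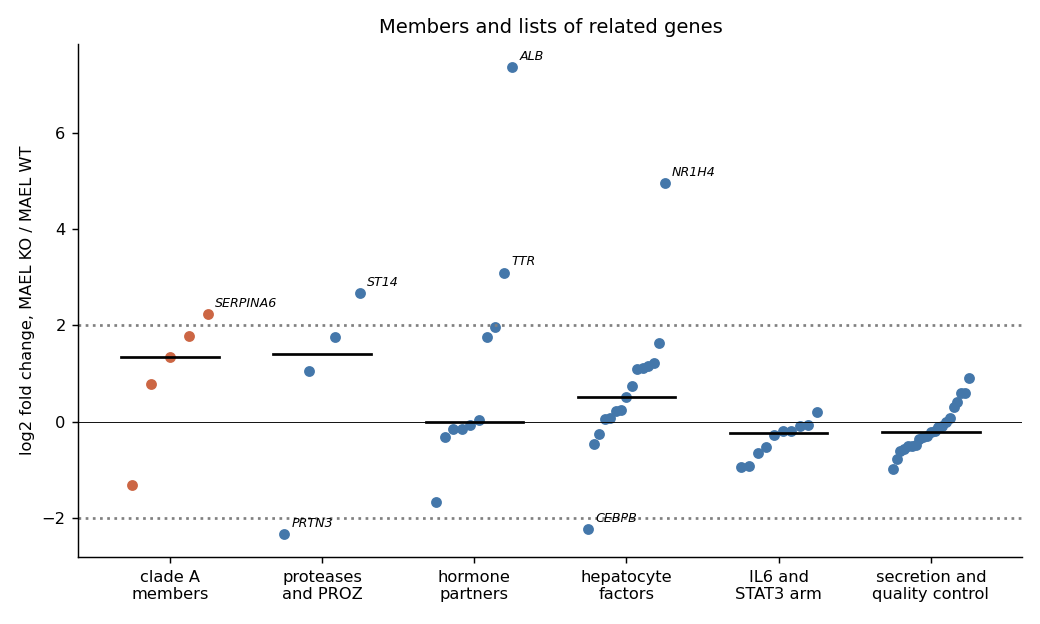
Log2 fold change, MAEL KO over MAEL WT (vertical axis), of each tested gene of 6 lists, in rising order within each list, with the median as a bar, dotted lines at 2 and -2, and names of genes past them. The medians are 1.34 for the members, 1.41 for the proteases and PROZ, -0.01 for the hormone partners, 0.51 for the hepatocyte factors, -0.24 for the IL6 and STAT3 arm and -0.22 for secretion and quality control.

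The label of liver serpins held for SERPINA1, SERPINA6 and SERPINA10, which had clear counts, and could not be shown for SERPINA3 and SERPINA7. The defining markers of hepatocytes had reads in both libraries, but ALB and TTR were low in MAEL WT, at 2.96 and 1.0 CPM. All 12 had values above 0 with TMM, against 8593 of all 17887 tested genes, with a median of 1.28. Their summed level, 11862 CPM in MAEL WT and 17245 in MAEL KO, was mostly APOB, TF, AMBP and FGB. All 5 bile duct markers had values below 0, against 9294 of all 17887 tested genes. Their summed level was 22.9 CPM in MAEL WT and 6.62 in MAEL KO. KRT7 (60 counts and 1 count), KRT19 (13 and 1) and EPCAM (15 and 0) were tested only through MAEL WT. In MAEL KO they were under the floor, so their direction was partly set by the count filter. Of the blood markers HBB was at 0 in both libraries, and the summed level of the 5, 63.6 and 35.9 CPM, was mostly LYZ. The 5 fibroblast markers summed to 13.5 and 8.5 CPM with ACTA2 at 0. Of these, COL1A1 had 92 and 11 counts and PDGFRB 122 and 29, while COL3A1 had 54 and 136. The 4 endothelial markers summed to 17.8 and 19.5 CPM, of which PECAM1 gave 17.5 and 18.8. CDH5 had 4 and 15 counts, and VWF had 1 count and 0 counts. In bulk RNA, more cells that express a serpin and more of its RNA per cell cannot be told apart. The part of these markers in the members' values was not tested.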

How the data were processed

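RNA of 1 MAEL WT and 1 MAEL KO library of PLC8024 cells was analysed from 2 tables. The authors deposited read counts per gene, whole numbers without normalization, and FPKM values, which the authors scaled by gene length and a library size. All sample columns were used. The submitters' processing notes name HISAT2 2.0.5, featureCounts 1.5.0-p3 and hg19, with no role given. All 58735 genes, however, carry the chromosome, start, end and strand of GENCODE 29 on GRCh38, which was used here.

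Counts were scaled by TMM in edgeR 4.0.16 with R 4.3.3. Fold changes were computed with 1 added, for genes with at least 10 counts in 1 library, with pandas 2.3.3, SciPy 1.17.1 and NumPy 2.4.6 under Python 3.11.15. Plots used matplotlib 3.10.9. With 1 library per group no p-value was computed, and the paper's log2 threshold of 2 was used alone. For a gene at or under 3 counts in 1 library the fold is given against 3 counts. Lists are described by counts and medians. Scripts were tested on simulated data.

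Alternatives were a log2 threshold of 1, size factors from DESeq2 1.42.0, scaling by total counts, ratios of FPKM, prior counts of 0.1 and 5, a minimum of 100 counts or none, and a table of protein-coding genes. All members are named, with genes of each list past 2, up to 3 at each end of each list, the member with the most counts and the cluster's genes in order. Markers, and HNF4A, CEBPA, CEBPD, STAT3, JAK1, LMAN1, NR3C1, ELANE, CTSG, CMA1, KLKB1, IL6 and others outside this rule, were named for their roles after their values were seen. The members and lists were chosen with earlier results of these data known. Protein sequences were not used here, and some genes of the lists and 4 of the 6 motifs searched are not reported here.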

Additional observations from a re-analysis of the deposited data

How the results depend on the processing

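The directions of SERPINA1, SERPINA4, SERPINA6, SERPINA10 and SERPINA11 held under every alternative that gave a value; a minimum of 100 counts left out SERPINA4 and SERPINA11. With total counts the log2 fold changes were 1.51 for SERPINA1, 1.97 for SERPINA6 and 1.06 for SERPINA10, so that 0 members were past 2, and the median of the genes around the cluster was -0.25. It was -0.05 with protein-coding genes alone. With a prior count of 5 there were 250 genes past 2 in the higher and 513 in the lower direction, against 387 and 1008. Without a count filter there were 1029 and 1773, and the median was -0.95 for the proteases and 0.037 for the hormone partners. With at least 100 counts there were 185 and 283, and the median was 1.41 for the other clade A serpins (AGT alone) and 0.32 for the serpins of cells and tissues. At a log2 threshold of 1 there were 1827 and 2951 genes, and 3 members higher and 1 lower. The share of genes past the threshold that were higher was 27.7%, and it was 17.0% with total counts, 36.7% without a filter, 39.5% with at least 100 counts and 38.2% at a threshold of 1. Of 154 values under alternatives 134 were labelled the same, 15 moved and 5 reversed. The rules for the same were wide. A fold change had to stay in its counting interval, and a number of genes within a set ratio of the main one. A median had to stay in its interval, or in short lists between the lowest and highest gene. A changed count filter or gene table leaves the fold change of a single gene unaltered. Part of the 154 values, among them those of the members, could therefore not move. With 1 library per genotype no library could be left out. No paired analysis was possible because each group holds 1 library. Depth limits SERPINA3, SERPINA7 and SERPINA11.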
